A study of Sus scrofa with 5 samples.

Results

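Solute carriers are membrane proteins that move amino acids, nucleotides, metal ions, vitamins and other small molecules across the plasma membrane and the membranes of organelles. The genes are named SLC, then a family number. In this report they are all genes on the porcine array whose single annotated symbol begins with SLC and a digit, apart from the SLC2A genes, SLC27A1, SLC25A1 and SLC25A20. This rule gave 109 of the 6765 genes with 1 annotated symbol. Of these, 19 belonged to families of amino acid carriers, 19 to the SLC25 family, 8 to families of zinc carriers and 63 to other families. Families were assigned by number, so not every gene called an amino acid carrier here carries amino acids. The creatine carrier SLC6A8 and the heavy chain SLC3A2 are in that group. The symbol rule also took in SLC9A3R1 and SLC9A3R2, which encode scaffold proteins that bind a sodium/proton exchanger and are not carriers themselves. The rule itself uses only the symbols, although it was set with earlier results of these data known. Where a gene had several probe sets, the one with the highest mean over the 5 arrays was used, which applied to 38 genes, while 71 genes had 1 probe set.

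The arrays were hybridized with backfat RNA of 5 female pigs, 1 array per animal. All came from a backcross of Iberian × Landrace F1 boars to Landrace sows. Diet, housing and age at slaughter were common to both groups. The H group was made up of BC4, BC5 and BC6 and the L group of BC2 and BC3, with high scores in H and low scores in L on a first principal component of carcass and intramuscular fatty acid traits. The labels give only the animals' names, and the groups of these names were taken from the paper. No treatment was applied, and each animal is a separate sample.

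Carriers of the amino acid families bring neutral, cationic and acidic amino acids into cells or release them from lysosomes. The SLC25 family exchanges ADP for ATP, phosphate, keto acids and nucleotides across the inner mitochondrial membrane, with a member in peroxisomes. Zinc is brought into the cytosol by SLC39 proteins and moved out of it by SLC30 proteins. In fat cells these carriers supply the mitochondria and the secretory pathway, and carriers of creatine, carnitine and fatty acids feed energy metabolism.

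The values are on the log2 scale, on which a difference of 1 is a 2-fold difference in signal. The lowest value in the file was 2.17, called the floor here, and nothing is known of the level of a gene there. Levels of different genes come from different probe sets, so the order of the levels is not an order of mRNA amounts. The median of all probe sets was between 4.21 and 4.29 on the 5 arrays. An extraction note in the labels names liver, whereas the tissue label names backfat. All 6 adipocyte markers measured of 8 listed were above the floor on every array, with FABP4 between 15.36 and 15.49. Among the 8 hepatocyte markers measured of 9 listed, SERPINA1 and AMBP were at the floor on all arrays, ALB was between 2.58 and 4.69, and APOA1, at 11.29 to 12.57, was the only one with a mean over 5. The summed log2 level of these markers, which APOA1 sets, was 11.34 and 12.00 on the L arrays and 12.22 to 12.58 on the H arrays. Of the 4 skeletal muscle markers measured of 8 listed, MYH2 was 7.84 on BC5, 4.75 on BC3 and 2.71 on BC4, and it was at the floor on BC2 and BC6. In bulk tissue, fewer cells of a type and less RNA per cell cannot be told apart.

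Of the 109 solute carriers, 90 were above the floor on at least 1 array (82.6%, against 88.6% of all 6765 genes) and 83 on all 5 arrays. The 19 genes at the floor on every array included 3 amino acid carriers, 1 SLC25 gene, 1 zinc carrier and 14 genes of other families. Among them were SLC6A14, SLC7A4 and SLC7A9 of the amino acid families, SLC25A51, which carries NAD+ into mitochondria, SLC39A2, the bile acid carrier SLC10A1, the iodide carrier SLC5A5, the peptide carriers SLC15A1 and SLC15A2 and the ascorbate carriers SLC23A1 and SLC23A2. Another 14 genes were above the floor by less than 0.1 on average, including SLC16A3, a lactate carrier, and SLC29A1, a nucleoside carrier. SLC16A3 was listed at 2.19 on each array. At least 1 unit above the floor on average were 69 genes, or 63.3%, against 75.1% of all genes.

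Many of the low probe sets repeated a value on several arrays, and such values have no order. Of the 83 genes above the floor on all arrays, 26 had the same value on at least 2 of them, and 5 of these had 1 value on all arrays. SLC35C2, of the nucleotide sugar carrier family, was at 6.20 on all arrays but BC5, where it was 6.68. The fucose nucleotide carrier SLC35C1 was at 4.23 on all 3 H arrays. That left 57 genes with a different value on each array (52.3%, against 71.8% of all genes). They were 15 of 19 SLC25 genes, 11 of 19 amino acid carriers, 3 of 8 zinc carriers and 28 of the 63 others.

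The median level of the 109 genes was 4.76, and that of all genes was 7.15. It was 6.86 for the SLC25 family, 4.76 for the amino acid carriers, 4.37 for the zinc carriers and 3.95 for the others. On all 5 arrays, 16 of the 19 SLC25 genes were above the median of the array, as were 9 amino acid carriers, 3 zinc carriers and 27 of the others. Over all solute carriers this was 55 genes (50.5%), against 68.7% of all genes.

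**Figure D1:**
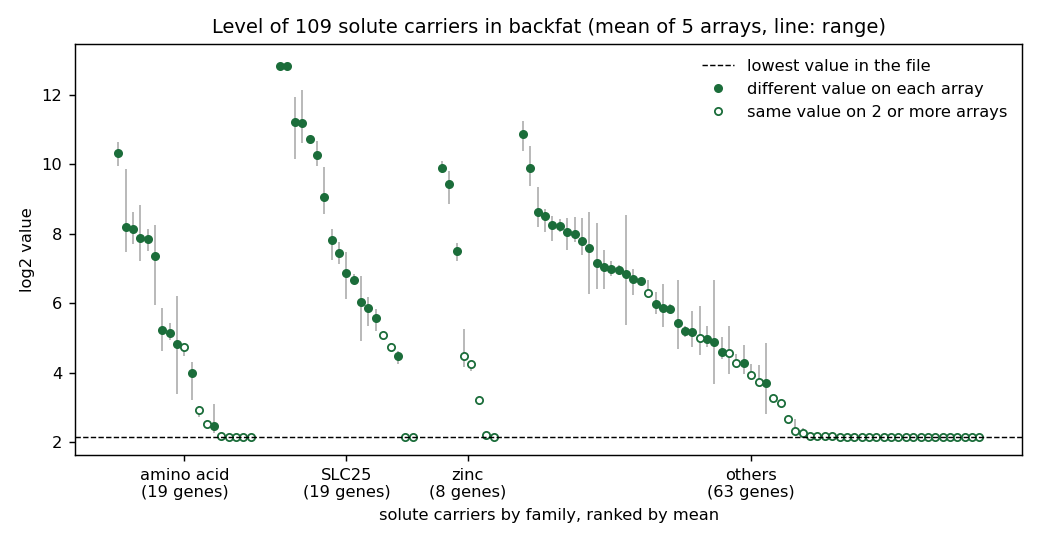
Mean log2 value over 5 arrays of each of the 109 solute carriers, ranked within 4 families, with a line from the lowest to the highest array and a dashed line at the lowest value in the file (2.17). Filled points had a different value on each array (57 genes) and open points had the same value on 2 or more arrays or were at the floor.

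The SLC25 family held the highest values and some of the smallest spreads. SLC25A6, an ADP/ATP exchanger, was 12.89 (BC2) and 12.77 (BC3) in L and 12.80 (BC4), 12.93 (BC5) and 12.79 (BC6) in H. SLC25A3, which brings phosphate into mitochondria for ATP synthesis, was 12.82 and 12.81 on the L arrays and 12.88, 12.87 and 12.74 on the H arrays. Its second probe set, with a mean of 4.01, varied more, with an SD of 0.464 over the 5 arrays. SLC25A5, another ADP/ATP exchanger, lay between 10.61 and 10.83. The SD over the 5 arrays was 0.069, 0.055 and 0.099 for these 3 genes, and their groups overlapped. Besides them, only SLC35B2, of the nucleotide sugar carrier family, had an SD under 0.1 with a different value on each array.

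The third ADP/ATP exchanger on the array, SLC25A4, which is the main form of muscle and heart, varied more. It was 11.15 (BC2) and 11.44 (BC3) in L and 11.39 (BC4), 10.15 (BC5) and 11.94 (BC6) in H, with an SD of 0.660. The summed log2 level of the 4 skeletal muscle markers measured was 4.44 (BC2) and 6.52 (BC3) in L and 4.70 (BC4), 8.75 (BC5) and 4.27 (BC6) in H. Its part in the values of SLC25A4 was not tested. H minus L was 0.013 for SLC25A6, 0.013 for SLC25A3 and 0.0050 for SLC25A5, and it was -0.14 for SLC25A4 with a 95% interval from -2.10 to 1.83.

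SLC25A17, a carrier of CoA and other cofactors in the peroxisomal membrane, was 12.15 (BC2) and 11.09 (BC3) in L and 11.20 (BC4), 10.63 (BC5) and 10.86 (BC6) in H. BC2 stood above the other 4 arrays, and BC3 lay within the H arrays. H minus L was -0.72 (SE 0.43, adjusted p = 1 from limma), and -0.19 without BC2. The oxoglutarate and malate carrier SLC25A11 was 7.47 and 6.90 on the L arrays and 6.91, 6.89 and 6.14 on the H arrays, with a difference of -0.54 (SE 0.37). SLC25A21, which carries oxoadipate and related acids, was 7.24 and 7.93 on the L arrays and 8.13, 8.05 and 7.80 on the H arrays, with a difference of 0.41 (SE 0.27). Without BC2 these differences were -0.25 and 0.07. The pyrimidine nucleotide carriers SLC25A33 and SLC25A36 were both highest on BC6, at 9.94 and 6.79, and were lowest on BC3 (8.58) and BC5 (4.91), respectively.

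**Figure D2:**
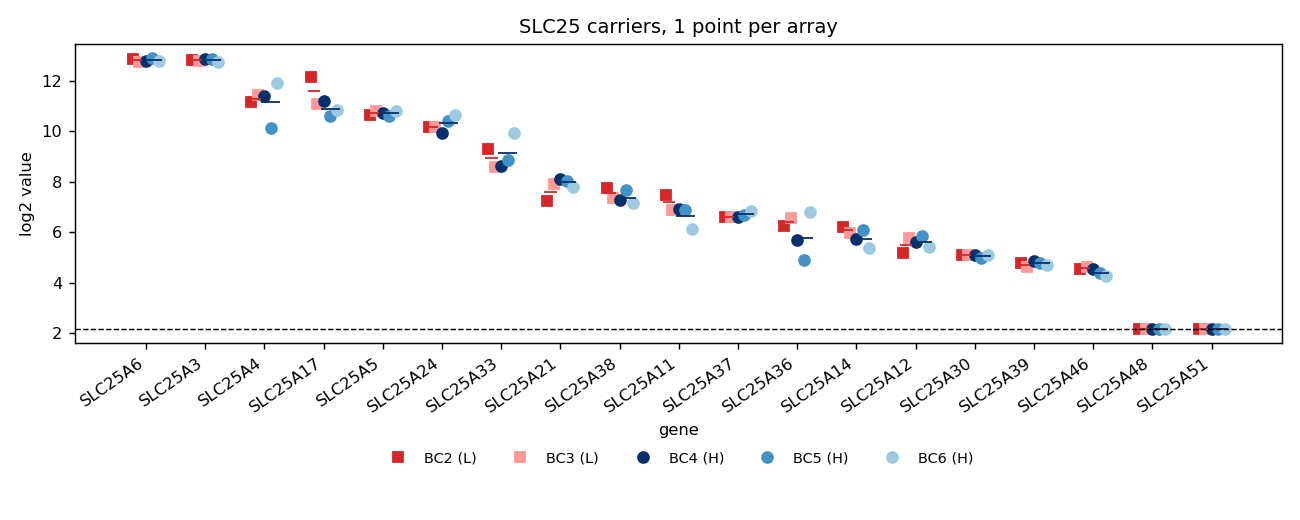
Log2 values of the 19 SLC25 genes, 1 point per array, with squares for the L group (BC2, BC3), circles for the H group (BC4 to BC6), short lines at the group means and a dashed line at the floor. In the probe sets shown, SLC25A6, SLC25A3 and SLC25A5 hardly spread over the arrays. SLC25A4, SLC25A17, SLC25A33 and SLC25A36 have an SD over 0.5, and SLC25A51 is at the floor.

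Of 10 mitochondrial transport proteins listed under other names, 9 were measured, all above the floor, with 4 higher and 5 lower in H on average and none past the test. The pyruvate carrier subunit MPC2 was 13.83 (BC2) and 12.76 (BC3) in L and 12.96 (BC4), 12.30 (BC5) and 12.58 (BC6) in H, so that BC2 was again the highest array. VDAC2, a channel of the outer membrane, was higher on every H array than on both L arrays (0.26, SE 0.074), and VDAC3 was lower (-0.23, SE 0.11), and limma gave both an adjusted p of 1.

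Among the amino acid carriers, SLC1A5, which takes up glutamine and other neutral amino acids, was 10.63 and 10.10 on the L arrays and 10.65, 9.95 and 10.31 on the H arrays. The groups overlapped, and H minus L was -0.06 with a 95% interval from -0.997 to 0.873. SLC38A10 lay between 7.71 and 8.62, SLC38A9, the lysosomal arginine sensor, between 7.51 and 8.16, and SLC7A1, a carrier of cationic amino acids, between 7.22 and 8.84. The heavy chain SLC3A2, which brings several amino acid carriers to the cell surface, was 4.26 and 3.98 on the L arrays and 4.33, 3.21 and 4.18 on the H arrays.

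SLC6A8, the creatine carrier, was 5.97 (BC2) and 7.43 (BC3) in L and 8.26 (BC4), 7.45 (BC5) and 7.79 (BC6) in H. Every H array lay above both L arrays, but BC3 and BC5 were nearly level and BC2 alone was low. The mean was 7.83 ± 0.40 in H (SD, n = 3) against 6.70 ± 1.04 in L (SD, n = 2). The difference of 1.13 (SE 0.59, adjusted p = 1 from limma) corresponded to 2.19-fold, and without BC2 it was 0.40. The 3 smooth muscle markers measured of 4 listed were above the floor, and their summed log2 level was 11.91 (BC2) and 13.15 (BC3) in L and 13.57 (BC4), 12.54 (BC5) and 12.70 (BC6) in H. It too was lowest on BC2 and highest on BC4, and its part in the values of SLC6A8 was not tested.

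SLC38A1, a carrier of glutamine and other small neutral amino acids, was 4.93 and 4.63 on the L arrays and 5.74, 5.00 and 5.88 on the H arrays. The groups did not overlap, although BC5 was only just above BC2. H minus L was 0.76 (SE 0.35, adjusted p = 1 from limma). Its other 2 probe sets were close to the floor, with differences of 0.08 and 0.

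Among the amino acid carriers, SLC36A2 and SLC1A3 had the largest differences in the other direction. SLC36A2, a proton-coupled carrier of glycine and proline known as a surface marker of thermogenic fat cells, was 9.87 (BC2) and 7.72 (BC3) in L and 7.55 (BC4), 8.33 (BC5) and 7.49 (BC6) in H. BC2 stood apart and BC3 was below BC5. H minus L was -1.001 (SE 0.83, adjusted p = 1 from limma), and without BC2 it was 0.07. The paper gives SLC36A2 among the genes that differed between the groups in its RNA-Seq, which included a further L animal. SLC1A3, a carrier of glutamate and aspartate, was 4.99 and 6.21 on the L arrays and 4.54, 3.41 and 5.02 on the H arrays. BC3 was the highest and BC5 the lowest, and BC6 was just above BC2. The difference was -1.28 (SE 0.73), and -0.66 without BC3.

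Genes tied to amino acid supply were measured for 3 of 4 listed, and none passed the test. ATF4, the transcription factor of the amino acid response, lay between 12.16 and 12.68, and glutamine synthetase, GLUL, between 13.78 and 14.32, with overlapping groups for both. Asparagine synthetase, ASNS, was 9.22 and 8.16 on the L arrays and 7.96, 7.28 and 7.47 on the H arrays. Every H array was below both L arrays, and the difference was -1.12 (SE 0.45, adjusted p = 1 from limma).

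Of the zinc carriers, SLC39A7, which releases zinc from the endoplasmic reticulum into the cytosol, had the smallest p of all 109 genes. It was 7.23 (BC2) and 7.36 (BC3) in L and 7.75 (BC4), 7.66 (BC5) and 7.60 (BC6) in H. The lowest H array was above both L arrays, and neither group spread widely, with 7.67 ± 0.075 in H (SD, n = 3) against 7.29 ± 0.088 in L (SD, n = 2). The difference of 0.38 (SE 0.069), or 1.30-fold, had an unadjusted p of 0.0089 and an adjusted p of 1 from limma. Leaving out each animal in turn gave differences between 0.32 and 0.44.

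SLC39A1, a zinc importer of the plasma membrane, was 9.82 and 9.76 on the L arrays and 9.99, 9.86 and 10.10 on the H arrays, without overlap. The difference was 0.19 (SE 0.089, adjusted p = 1 from limma). Its second probe set, at 6.31 and 6.57 in L and 6.72, 6.55 and 6.96 in H, had a difference of 0.30 with overlapping groups. SLC30A5, which moves zinc into the secretory pathway, was 9.83 and 9.46 on the L arrays and 9.55, 8.86 and 9.42 on the H arrays. Its difference was -0.37 (SE 0.29), and a second probe set gave -0.42.

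SLC39A14, a carrier of zinc and iron, was highest on BC6 (5.28) and between 4.16 and 4.51 elsewhere, with 1 value shared by BC3 and BC5. SLC39A4, SLC39A5 and SLC30A3 also repeated values and had means of 4.25, 3.22 and 2.204. Of 4 listed genes that bind or respond to zinc, 2 were measured. The metallothionein MT1A was 8.85 and 8.41 on the L arrays and 9.57, 9.82 and 8.02 on the H arrays, so the groups overlapped, and MT3 was close to the floor on all arrays.

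In the other families, SLC35B3, a carrier of the sulfate donor PAPS into the Golgi, had the next smallest p. It was 7.81 (BC2) and 8.11 (BC3) in L and 8.53 (BC4), 8.48 (BC5) and 8.42 (BC6) in H. All 3 H arrays lay within a narrow range above both L arrays, with 8.48 ± 0.053 in H (SD, n = 3) against 7.96 ± 0.22 in L (SD, n = 2). The difference of 0.52 (SE 0.11), or 1.43-fold, had an unadjusted p of 0.016 and an adjusted p of 1 from limma. SLC35B2, which also carries PAPS, was between 6.55 and 6.72 with a difference of -0.02.

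SLC35F6 and SLC35D2, of the same nucleotide sugar carrier family, also had every H array above both L arrays. SLC35F6 was 6.43 and 6.93 on the L arrays and 7.53, 7.12 and 7.28 on the H arrays, with a difference of 0.63 (SE 0.23, adjusted p = 1 from limma). Its second probe set was at 3.81 and 4.94 in L and 5.44, 5.08 and 4.94 in H, with a difference of 0.78. SLC35D2 was 7.40 and 7.64 on the L arrays and 7.82, 8.46 and 7.70 on the H arrays, where BC6 exceeded BC3 by less than 0.1 and BC5 stood highest.

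**Figure D3:**
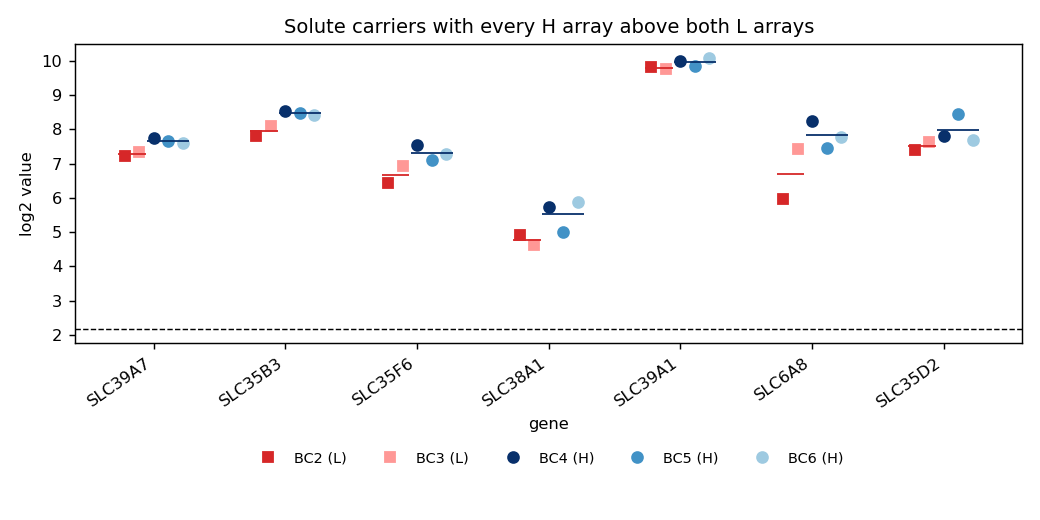
Log2 values per array of the 7 solute carriers whose 3 H arrays (circles) all lie above both L arrays (squares), ordered by p, with lines at the group means. The gap between groups is widest against the spread for SLC39A7 and SLC35B3, and for SLC6A8 the L mean is set mainly by BC2 at 5.97.

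Carriers of vitamins and cofactors overlapped between the groups. SLC5A6, which takes up biotin and pantothenate, was 9.37 and 9.84 on the L arrays and 10.52, 9.59 and 10.10 on the H arrays, and H minus L was 0.46 (SE 0.37). SLC33A1, which brings acetyl-CoA into the endoplasmic reticulum, was 8.46 and 8.12 on the L arrays and 8.31, 7.52 and 7.81 on the H arrays, with a difference of -0.41 (SE 0.31). Other SLC33A1 probe sets above the floor gave -0.55 and -0.04, and the latter was highest on BC5, at 7.85. The carnitine carrier SLC22A5 was between 4.75 and 5.34. SLC22A3, a low-affinity carrier of catecholamines and other organic cations, was between 8.05 and 8.71, and SLC35B1, which exchanges ATP and ADP across the membrane of the endoplasmic reticulum, was between 8.05 and 8.44.

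SLC35F5 was between 10.40 and 11.26, with overlapping groups. SLC44A2, a choline carrier, was 8.37 and 8.81 on the L arrays and 8.37, 9.37 and 8.19 on the H arrays. Its difference was 0.05, and its second probe set gave -0.29, so the direction depended on the probe set. SLC46A3, a lysosomal protein, was at 4.50 on BC3, BC4 and BC6 and at 5.64 on BC2 and 5.92 on BC5. A second probe set of SLC46A3 was 5.23 and 3.77 on the L arrays and 3.43, 3.18 and 3.50 on the H arrays. In that probe set every H array was below both L arrays. The differences were -0.09 for the first and -1.13 for the second.

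Over the 57 genes with a different value on each array the median SD was 0.331, and it was 0.266 for all such genes on the array. By family it was 0.454 for amino acid carriers, 0.274 for SLC25, 0.218 for zinc carriers and 0.320 for the others. An SD over 0.5 was found for 18 of the 109 genes (16.5%, against 13.8% of all genes). Of these, 5 were amino acid carriers, 4 were SLC25 genes and 9 belonged to the other families. Among genes with a different value on each array the share was 28.1%, against 18.1% of all such genes.

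SLC27A6, a fatty acid transport protein, had the largest SD, 1.27. It was 8.55 (BC2) and 6.55 (BC3) in L and 6.10 (BC4), 5.38 (BC5) and 7.70 (BC6) in H. BC2 and BC6, of different groups, were high, and the other 3 arrays were low. H minus L was -1.16 (SE 1.10, adjusted p = 1 from limma), and -0.16 without BC2. The other probe sets of SLC27A6 were at or near the floor on all arrays, with differences of -0.0023 and 0.

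SLC26A11, a sulfate and anion carrier, had high and low arrays that did not follow the groups. It was 8.64 on BC2, 8.11 on BC4 and 8.62 on BC6, and it was 6.27 on BC3 and 6.28 on BC5. The SD was 1.21, and H minus L was 0.21 with a 95% interval from -3.41 to 3.82. Leaving out 1 L animal moved the difference from -0.98 (without BC3) to 1.39 (without BC2). Its other probe set was at the floor on all arrays. SLC26A11 is also on the paper's RNA-Seq list of genes that differed between the groups.

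SLC11A1, a metal carrier of phagosomes in macrophages, was 5.21 (BC2) and 3.69 (BC3) in L and 4.41 (BC4), 4.52 (BC5) and 6.68 (BC6) in H. BC6 was the highest, the groups overlapped, and the difference of 0.76 (SE 1.05) was 0.02 without BC6. The 3 macrophage markers measured of 6 listed were all above the floor, and their summed log2 level was 8.93 and 9.24 on the L arrays and 8.12, 8.22 and 10.11 on the H arrays. CD163, AIF1 and CD14 were all highest on BC6, at 8.81, 9.31 and 4.47, and their part in the level of SLC11A1 was not tested. The iron carrier SLC11A2 was also highest on BC6, at 4.87, and lowest on BC2, at 2.81.

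The scaffold gene SLC9A3R2 was 6.94 (BC2) and 7.21 (BC3) in L and 6.92 (BC4), 8.31 (BC5) and 6.42 (BC6) in H, with BC5 the highest. The 6 endothelial markers listed were all measured, and all were above the floor on at least 1 array. Their summed log2 level was 13.01 and 13.54 on the L arrays and 13.41, 14.07 and 13.19 on the H arrays, also highest on BC5. Its part in the level of SLC9A3R2 was not tested. SLC9A3R1 was highest on BC6, at 6.67, and lowest on BC5, at 4.70.

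**Figure D4:**
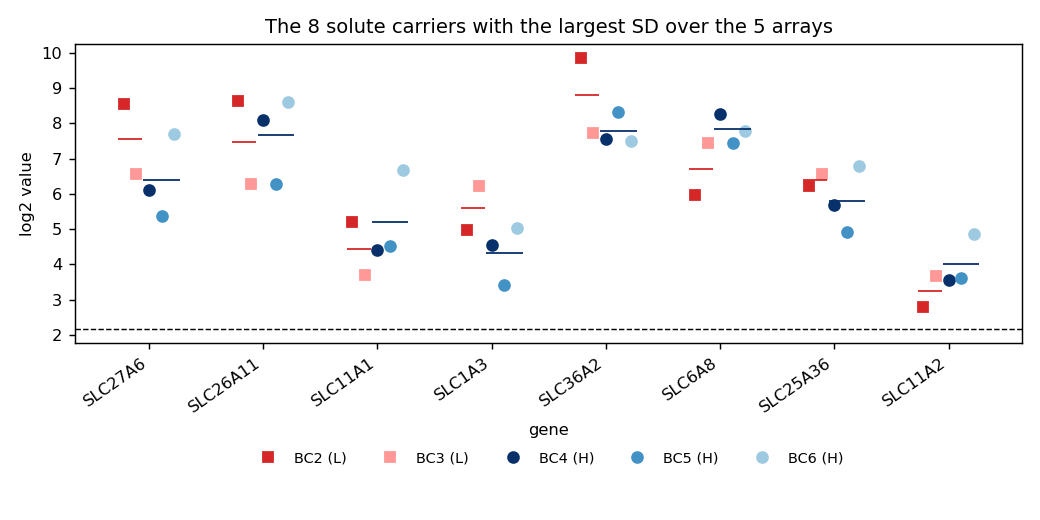
Log2 values per array of the 8 solute carriers with the largest SD over the 5 arrays, with squares for L, circles for H, lines at the group means and a dashed line at the floor. In all but SLC6A8 the groups overlap, and BC2 or BC6 is the highest array for 6 of the 8 genes.

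Counted over the 57 genes with a different value on each array, the highest array was BC6 for 19, BC2 for 13, BC4 for 12, BC5 for 11 and BC3 for 2. BC6 thus held the highest value of 33.3% of these genes, against 21.0% of the 4854 such genes on the array. BC3 held it for 3.51%, against 17.1%. The array farthest from the mean of the 5 was BC5 for 19 genes, BC2 for 17, BC6 for 17, BC4 for 3 and BC3 for 1.

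In the comparison of H with L, a gene passed at a p of at most 0.01, an adjusted p of at most 0.1 and a fold difference of at least 1.2. None of the 109 solute carriers passed with limma, against 0% of all 23999 probe sets tested, and the lowest adjusted p was 1. At an unadjusted p under 0.05, 2 genes were higher in H, SLC39A7 and SLC35B3, which is 1.83% of the solute carriers against 1.88% of all genes, and 0 were lower in H, against 2.51% of all genes. Every H array lay above both L arrays for 7 genes (6.42%, against 7.12% of all genes) and below both for 0 genes, against 8.66% of all genes. These shares in the H direction were near those of all genes.

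The mean was higher in H for 51 genes, lower for 34 and the same for 24, and over all genes on the array these counts were 2923, 2905 and 937. Of the 57 genes with a different value on each array, 33 were higher in H (57.9%, against 48.7% of all such genes) with a median difference of 0.05, against -0.01 for all. The median difference of all 109 genes was 0, as it was for all genes. A difference of at least 1 was found for 4 genes (3.67%, against 1.61% of all genes), SLC6A8 (1.13), SLC36A2 (-1.001), SLC27A6 (-1.16) and SLC1A3 (-1.28), none of which was past the test.

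**Figure D5:**
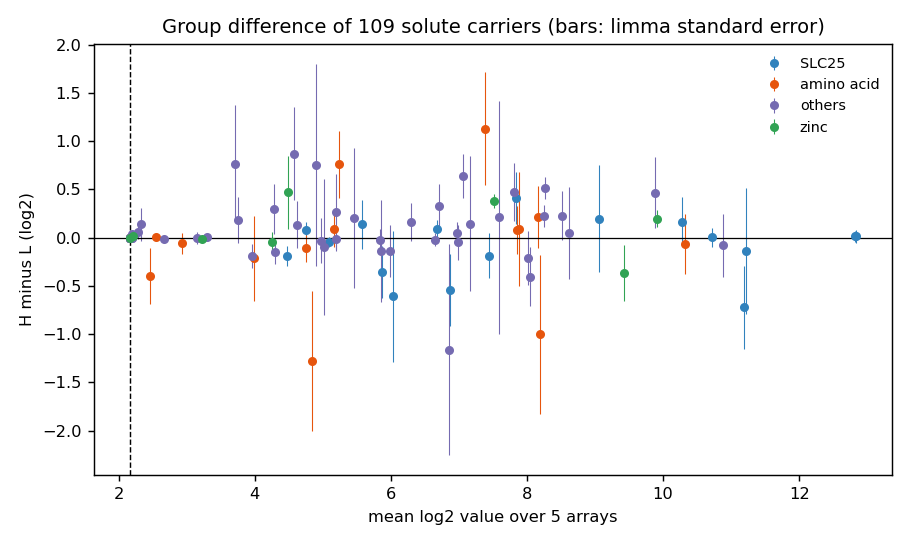
H minus L on the log2 scale against the mean log2 value over the 5 arrays for the 109 solute carriers, coloured by family, with bars of 1 limma standard error and a dashed line at the floor. Wide bars go with the large differences, such as SLC1A3 at -1.28 and SLC27A6 at -1.16, and SLC25A6 and SLC25A3 sit near 0 at the right.

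Without BC3, which left BC2 as the only L array, 3 genes passed (2.75%, against 1.19% of all probe sets), and these were SLC1A1, SLC35C1 and SLC52A2. SLC1A1, a glutamate carrier, was 3.10 on BC2 and between 2.28 and 2.32 on the other arrays. SLC35C1 was 4.55 on BC2 and at 4.23 on all H arrays, and the riboflavin carrier SLC52A2 was 4.25 on BC2 and between 3.86 and 3.88 elsewhere. In each, BC2 alone was high and the other arrays were nearly or exactly equal. Without BC2, 0 of the solute carriers passed, against 0.667% of all probe sets. The shares of all probe sets include probe sets without a symbol, so they are not like for like with shares of genes. The small number of arrays, 3 in H and 2 in L, sets the precision of each difference.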

How the data were processed

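Backfat RNA of 5 pigs, 3 of H and 2 of L, was labelled and hybridized to Affymetrix porcine arrays. The deposited log2 values had been adjusted for background, normalized and summarized per probe set by the authors. Their methods name GCRMA and the submitters' processing notes RMA, so the method is not settled. The number of arrays, not a read depth, limits the precision. Each p-value sets a difference against the spread between these animals, as moderated by limma over all probe sets.

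Gene symbols came from the platform annotation (1 symbol for 10069 probe sets, several for 198, none for 13732), and 108 of 109 genes matched RefSeq by identifier. Another 5 probe sets with an SLC symbol and a further symbol were left out. After removal of 124 control probe sets, all 23999 others were tested as H minus L with limma 3.58.1 in R 4.3.3, and p-values were adjusted by the Benjamini-Hochberg method. The thresholds were those the paper gives for RNA-Seq. Values within 1e-06 were taken as equal. Intervals are 95% intervals of the fit, and SE is its moderated standard error. Summed marker levels are log2 of the sum of linear values.

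The genes, lists and tests were chosen with earlier results of these data known. Genes were named for the 4 highest means and up to 3 smallest p-values in each direction of a family, the 4 largest SDs, presence in the paper's gene list or a known role in fat, and some by their spread or marker pattern after their values were seen. Alternatives were other thresholds, filters, scalings, variance models, probe set choices and leaving out each animal. The fit was tested on simulated data.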

Additional observations from a re-analysis of the deposited data

How the results depend on the processing

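None of the 109 solute carriers passed under the other threshold, filters, scalings, variance models or probe set choices, and leaving out each animal gave 0 to 3. Without 1 animal, 1 to 5 genes had an unadjusted p under 0.05 and a higher mean in H, and 0 to 5 a lower one. SLC39A7 was among them in every setting, and SLC35B3 in all except those without BC4 or without BC5. Genes with every H array above both L arrays numbered 10 to 24 without 1 animal, and those below 2 to 16. With all animals, 43 genes lay below after median centring, which by its construction separates equal values, and 9 after quantile normalization. Over all probe sets of the genes it was 1, the second probe set of SLC46A3. Shares of all genes at an unadjusted p under 0.05 or without overlap were not counted in these settings. Fewer arrays make a lack of overlap easier, so these counts are not read as a trait of the solute carriers. A different value on all 5 arrays, an alternative added after the data were seen, left 57 genes above the floor, with 3 zinc carriers and 28 of the other families. The median level was 4.04 for the mean of the probe sets, 3.01 over all probe sets and 5.34 without genes at the floor. In the same order it was 6.04, 6.04 and 7.15 for SLC25 and 3.39, 2.28 and 5.01 for the other families, and the first 2 settings gave 3.48 and 2.47 for amino acid carriers and 3.798 and 3.74 for zinc carriers. Over all probe sets, both scalings moved H minus L by a median of under 0.1 in size.

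Of 40 named genes with a direction, 20 kept it in every alternative run, 19 turned or lost it without 1 animal and 9 turned it with all animals. The 19 count SLC6A4, whose difference fell to 0 without BC3 and did not change sign. Median centring turned SLC25A6 (-0.029), SLC25A3 (-0.029), SLC25A5 (-0.037), SLC6A4 (-0.034) and SLC29A1 (-0.0087), and quantile normalization SLC6A4 (-0.0028). Array weights turned SLC1A5 (0.054), SLC25A4 (0.019), SLC25A6 (-0.0050) and SLC44A2 (-0.087). The mean of the probe sets turned SLC44A2 (-0.081), and other probe sets turned SLC25A3 (-0.0050), SLC35F5 (0.00076) and SLC44A2 (-0.29 and -0.0029). Leaving out 1 animal gave differences from -0.33 to 0.20 for SLC1A5, -2.08 to 0.073 for SLC36A2, -0.099 to 0.54 for SLC38A10, -0.37 to 0.44 for SLC7A1, -0.80 to 0.010 for SLC1A1 and -0.42 to 0.13 for SLC3A2. They were 0 to 0.016 for SLC6A4, -0.048 to 0.074 for SLC25A6, -0.013 to 0.057 for SLC25A3, -0.079 to 0.089 for SLC25A5, -0.52 to 0.37 for SLC25A4 and -0.0041 to 0.17 for SLC25A39. They were -0.28 to 0.15 for SLC35F5, -0.31 to 0.28 for SLC44A2, -0.0997 to 0.56 for SLC22A3, -0.32 to 0.022 for SLC35C1, -0.98 to 1.39 for SLC26A11, -0.0035 to 1.51 for SLC11A1 and -0.099 to 0.038 for SLC39A4. The cause was not tested. No paired analysis was possible because no animal number occurs in both H and L. Where genes were near the floor, the signal limits what the arrays can show.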
